A study of Mus musculus with 6 samples.

Results

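Nomo1 and 9 genes of the protein-conducting channel of the endoplasmic reticulum (ER) membrane were followed in mouse cardiac fibroblasts, 10 genes of 17525 in the deposited table. They were taken by symbol: Nomo1, its partners Ncln and Tmem147, Tmco1, Ccdc47 and Wdr83os of the translocon for multipass proteins, the channel subunits Sec61a1, Sec61b and Sec61g, and Ssr1. All 10 symbols were found, and all 10 were among the 15954 genes that passed the expression filter. Nomo1 was chosen because it falls strongly in these libraries, so its values are given as a description without a test. The other 9 were chosen by the complex they belong to, though not every subunit was taken. They too were chosen with earlier results of these data known, so their calls are not independent of the data. The cells were unpassaged cardiac fibroblasts cultured from hearts of C57BL/6 mice aged 6 weeks, the connective tissue cells of the heart. All of them received a lentivirus and all were stimulated with 1 µg/ml lipopolysaccharide (LPS, a bacterial cell-wall component) for 24 h, beginning 72 h after the virus. Of the 6 libraries, 3 carried a scramble hairpin (labelled WT, Ctrl) and 3 a short hairpin RNA against Sipa1 with an EGFP reporter (labelled Sipa1 knockdown), and all had the batch label 1. No cells without virus or without LPS were analysed here. Nothing in the labels ties the libraries to separate cultures or mice, so p-values measure only the spread between these samples, and that spread may be technical.

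Proteins that enter the secretory pathway pass the ER membrane through the Sec61 channel, formed by an alpha, a beta and a gamma subunit. Work in human cells has shown that, while a protein with many membrane spans is made, 3 further assemblies gather behind the channel. The PAT complex (Ccdc47 and Wdr83os, also called Asterix) shields new membrane spans, the GEL complex (Tmco1 and Rab5if) inserts them, and the BOS complex (Nomo1, the nicalin gene Ncln, and Tmem147) binds beside them. Ssr1 encodes the alpha subunit of the translocon-associated protein (TRAP) complex, which helps some signal sequences to engage the channel. Fibroblasts rely on this machinery for collagens, receptors and cytokines. Nomo and nicalin were also described as antagonists of Nodal signalling in zebrafish.

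Sipa1, the target of the hairpin and a GTPase-activating protein for Rap, kept 41.9% of its scramble level in the knockdown libraries. It stood at 41.0, 43.7 and 41.4 CPM (read counts scaled by library size) in scramble replicates 1, 2 and 3 and at 17.7, 20.0 and 15.2 CPM in knockdown replicates 1, 2 and 3. Total reads in genes ranged from 30930998 to 41839742 per library, lowest in scramble replicate 2. Fibroblast markers were high in every library: the 8 listed genes, with Col1a1 highest in CPM and 3 of them lower in knockdown, summed to 21300 to 24300 CPM in scramble and 21000 to 23200 CPM in knockdown. The 3 were Tcf21, from a mean of 152.6 to 85.06 CPM, Pdgfra, from 339.2 to 275.3 CPM, and Dcn, from 2748 to 2427 CPM. Collagen genes made up most of the sums, which thus say little about Tcf21 or Pdgfra. The 8 mesothelial markers summed to 94.3 to 101 CPM in scramble and 214 to 226 CPM in knockdown, and 6 of them rose. Lrrn4, the highest in CPM, went from a mean of 54.2 to 145.7 CPM. The macrophage list, with Lyz2 highest in CPM, summed to 138 to 153 and 159 to 165 CPM. Of its 8 genes 1 rose, Csf1r, from a mean of 17.0 to 29.7 CPM. The endothelial list, led by Cdh5, summed to 190 to 210 and 197 to 207 CPM, with 2 of 8 genes higher and 1 lower. The smooth muscle and pericyte list, with Smtn highest in CPM, summed to 155 to 173 and 140 to 152 CPM. Of its 7 tested genes 2 were lower, Cspg4 and Rgs5. Of the cardiomyocyte markers 3 were tested, led by Tnnt2, with sums of 20.6 to 22.0 and 25.3 to 32.6 CPM and 1 gene higher. Markers counted as higher or lower had an edgeR adjusted p under 0.05, as had 32.2% of all genes tested. The share was 37.5% in the fibroblast and in the endothelial list, 12.5% in the macrophage list and 75% in the mesothelial list. It was 28.6% in the smooth muscle and pericyte list and 33.3% in the cardiomyocyte list. No marker that was found is at 0, since every gene in the table has at least 1 read in each library, and the sums cover the 42 of 48 listed markers that were tested. The part of these other cells in the translocon values below was not tested, and fewer cells of a type and less RNA per cell cannot be told apart in bulk RNA.

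The 3 subunits of the BOS complex went apart: Nomo1 was at 23.7% of its scramble level, while Ncln and Tmem147 rose. Their promoters are printed because partners of a single complex moved in opposite directions. Each runs from 250 bases before to 50 bases after the transcript start that the RefSeq promoter table (GRCm38.p6) uses, 5′ to 3′ on the gene's strand. For Ncln that start, 81496363, lies 591 bases inside the outer bound of the gene given below. The regions are chr7:46033446-46033745 (plus strand) for Nomo1, chr10:81496314-81496613 (minus strand) for Ncln and chr7:30729485-30729784 (minus strand) for Tmem147. Capitals mark GGGCGG (a GC box, either strand) and TGACGTCA (a cyclic AMP response element).
Nomo1: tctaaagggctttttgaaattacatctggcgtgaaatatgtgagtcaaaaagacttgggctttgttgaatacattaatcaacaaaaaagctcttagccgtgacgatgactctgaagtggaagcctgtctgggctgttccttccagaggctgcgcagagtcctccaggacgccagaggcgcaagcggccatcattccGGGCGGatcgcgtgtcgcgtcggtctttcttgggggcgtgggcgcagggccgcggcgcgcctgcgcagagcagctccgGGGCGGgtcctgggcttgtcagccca
Ncln: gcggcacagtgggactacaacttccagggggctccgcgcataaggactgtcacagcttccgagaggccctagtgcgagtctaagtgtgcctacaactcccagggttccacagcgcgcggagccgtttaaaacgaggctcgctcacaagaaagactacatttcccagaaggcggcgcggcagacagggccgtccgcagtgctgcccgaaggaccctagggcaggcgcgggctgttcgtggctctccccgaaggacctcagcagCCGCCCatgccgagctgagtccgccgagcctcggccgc
Tmem147: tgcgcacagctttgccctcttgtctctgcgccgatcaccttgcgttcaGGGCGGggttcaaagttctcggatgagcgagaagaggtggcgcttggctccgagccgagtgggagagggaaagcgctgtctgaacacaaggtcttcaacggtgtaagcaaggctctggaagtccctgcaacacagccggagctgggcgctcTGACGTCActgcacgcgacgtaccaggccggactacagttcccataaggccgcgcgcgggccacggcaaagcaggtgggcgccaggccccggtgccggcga
Nomo1 had 2 GC boxes, beginning at -54 and 24 from the start site, and Ncln and Tmem147 had 1 each, while TGACGTCA was present in Tmem147 alone, at -51. GGGCGG lay in 6 of the 9 member promoters in the table and in 35.9% of all 27025 promoters of the same length, and TGACGTCA in 1 of 9 and 1.88%. Those 9 are the members with Nomo1 and without Sec61a1, which has no promoter in that table and was not searched. None of the 9 held the ER stress response elements ERSE (0.13% of all promoters) or ERSE-II (0.037%), nor the unfolded protein response core TGACGTG (1.99%), which shares its beginning with TGACGTCA. CCAAT lay in 2 of 9, those of Wdr83os and Sec61g, and in 37.9% of all promoters. All motifs were searched on both strands, and no capitals above belong to overlapping matches. These matches describe letters and are no measure of factor binding.

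Nomo1 (NCBI gene 211548, chromosome 7, 46033696 to 46084212, plus strand, GRCm38) encodes a large ER membrane protein with a long lumenal part. Its GENCODE transcript has 31 exons and 4257 bases, 3642 of them coding, and it is the only annotated mouse gene of that name. Scramble replicates 1, 2 and 3 held 14745, 10407 and 15147 Nomo1 reads, or 369.6, 327.5 and 366.2 CPM. Knockdown replicates 1, 2 and 3 held 3231, 3491 and 3023 reads, or 86.0, 85.3 and 80.5 CPM. The groups were far apart, and scramble replicate 2 was the lowest of its group. On average 354 ± 23.4 CPM in scramble stood against 83.9 ± 2.99 CPM in knockdown (SD, n = 3 in both), a log2 fold change of -2.08 or a 4.22-fold drop. Among 10864 genes with a mean of at least 5 CPM this was the deepest fall, rank 1, and 2 genes below that level fell further. The longest run of bases that the Nomo1 transcript shares on the same strand with any of 8 Sipa1 transcripts was 12 bases, and 72.3% of 13382 genes share a run as long. That search used whole Sipa1 transcripts and not the hairpin sequence, so an effect of the hairpin on Nomo1 itself was not tested. The table counts Nomo1 on 1 RefSeq transcript, so isoforms are not told apart. It also overlaps the long noncoding gene Gm39010, which was not analysed here, and how strand was treated in counting is a point not given in the sources used here.

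Ncln (nicalin, the binding partner of Nomo; chromosome 10, 81486455 to 81496954) rose. It stood at 114, 97.6 and 108 CPM in scramble replicates 1, 2 and 3 and at 182, 158 and 164 CPM in knockdown replicates 1, 2 and 3, so that every knockdown library lay above every scramble library. Group means were 106.5 ± 8.21 and 168 ± 12.2 CPM (SD, n = 3; log2 0.66, SE 0.056, edgeR adjusted p = 1.59e-08). A rise of this size or more was seen in 1.22% of genes with a mean of at least 5 CPM. Tmem147 (chromosome 7, 30727701 to 30729534), a small multispan subunit of the same complex, rose less. It stood at 39.9, 37.3 and 41.85 CPM in the scramble libraries and at 49.8, 43.2 and 44.2 CPM in the knockdown libraries, with knockdown replicate 1 the highest and no overlap between groups. The rise was 0.20 on the log2 scale with an SE of 0.061 (edgeR adjusted p = 0.0126). Leaving out scramble replicate 2 (adjusted p = 0.0681) or knockdown replicate 1 (0.0867) ended the call, and the 17 alternatives spanned 0.0055 to 0.0867.

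**Figure D1:**
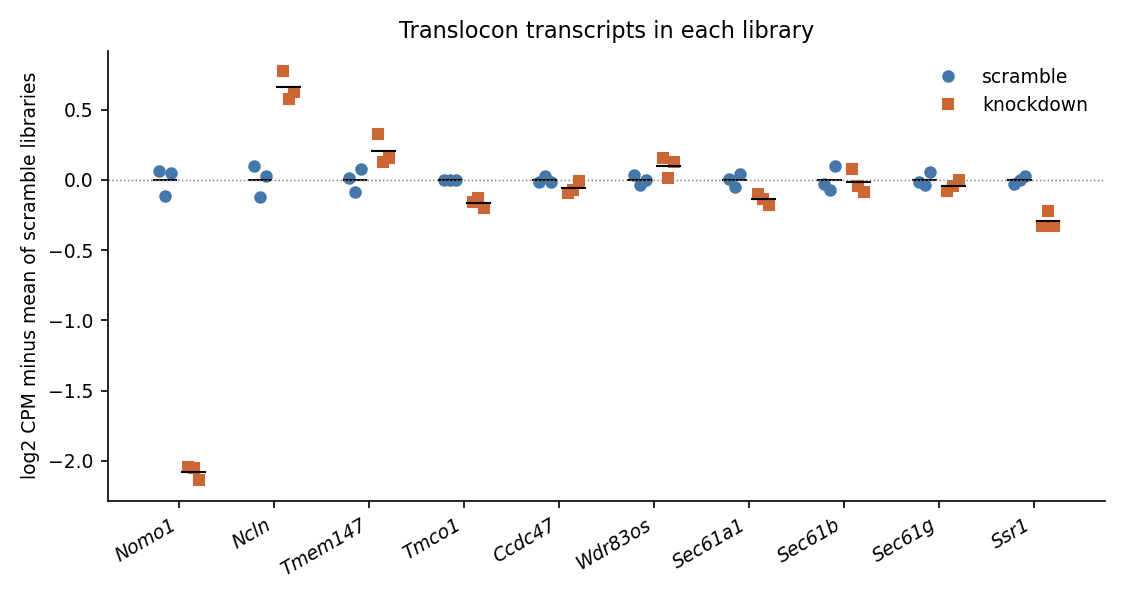
Log2 CPM of each gene in each library, minus the mean of the 3 scramble libraries (circles, scramble; squares, knockdown; black bars, group means). Nomo1 lies about 2.08 below its scramble mean in the knockdown libraries and Ncln about 0.66 above it, and no other gene moves as far as Ncln.

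Ratios between the BOS transcripts were taken within each library and differed between the groups. Those with Nomo1 use the gene chosen for its fall, so they are a description and no separate result. The ratio of Nomo1 to Ncln in the authors' TPM (abundance scaled for gene length and library size) was 2.27, 2.36 and 2.35 in scramble replicates 1, 2 and 3. In knockdown replicates 1, 2 and 3 it was 0.331, 0.38 and 0.342. Nomo1 transcripts were therefore more abundant per length than those of Ncln in every scramble library and less abundant in every knockdown library. The ratio of Nomo1 to Tmem147 went from 1.82 ± 0.057 to 0.375 ± 0.025 (SD, n = 3 each). Tmem147 to Ncln, which the choice of Nomo1 did not use, stood at 1.20, 1.32 and 1.32 in scramble and at 0.94, 0.946 and 0.922 in knockdown, with no overlap.

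**Figure D2:**
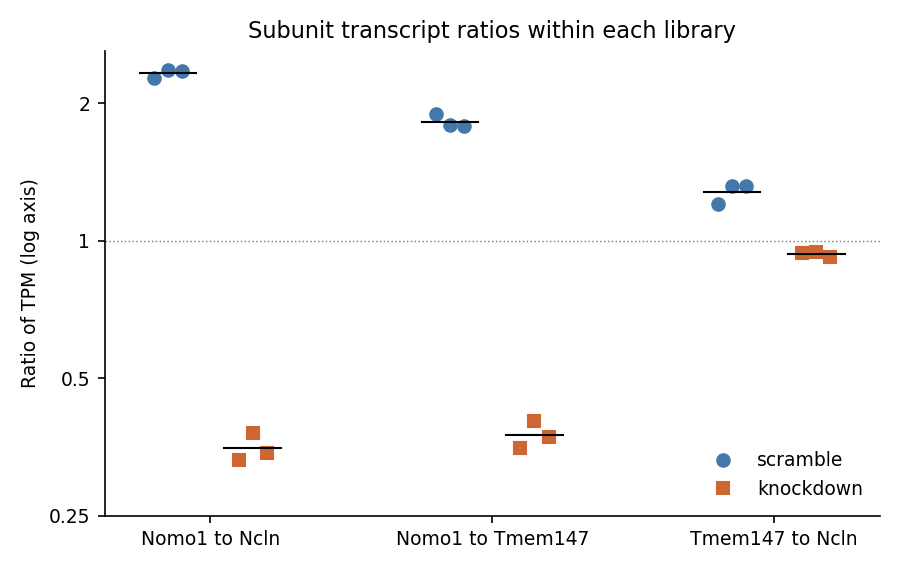
Ratios of TPM between subunits of the BOS complex within each library, on a log axis (circles, scramble; squares, knockdown; black bars, group means). The Nomo1 to Ncln ratio has a mean of 2.33 in scramble and 0.351 in knockdown libraries, and the Tmem147 to Ncln ratio goes from 1.28 to 0.936. Nomo1 was chosen for its fall, so its ratios are a description.

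Beyond Nomo1, 5 of the 9 other members (55.6%) passed the test, 2 higher and 3 lower, where 32.2% of all genes tested were called, 16.4% higher and 15.8% lower. Among genes with a mean of at least 25 CPM, a level that all members exceed, 45.9% were called. The members' share is thus near that of genes of like abundance. Their median log2 fold change was -0.04, beside -0.001 for all genes tested. The 5 that passed were also those of the 9 whose groups did not overlap, a state found in 43.6% of all genes. Without knockdown replicate 3 the count was 3, as Tmco1 and Sec61a1 then missed the threshold. In the authors' deposited table these 5 genes also have an adjusted p under 0.05, with a signed fold of 1.57 for Ncln, 1.15 for Tmem147, -1.12 for Tmco1, -1.1 for Sec61a1 and -1.23 for Ssr1, and 30.4% of all genes with an adjusted p pass there.

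Of the insertase and chaperone subunits, Tmco1 was slightly lower and the PAT pair did not pass the threshold. Tmco1 (chromosome 1, 167308670 to 167333978), the insertase of the GEL complex and also described as a calcium leak channel of the ER, stood at 80.8, 80.6 and 80.5 CPM in scramble replicates 1, 2 and 3. It stood at 72.2, 73.8 and 70.2 CPM in knockdown replicates 1, 2 and 3, all lower than the tightly grouped scramble values. The difference was -0.16 on the log2 scale with an SE of 0.045 (edgeR adjusted p = 0.00724). Leaving out knockdown replicate 3 ended the call (0.0505), and the alternatives spanned 0.00377 to 0.0505.

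Ccdc47 (chromosome 11, 106199260 to 106216523), the calcium-binding subunit of the PAT complex, stood at 137, 141 and 137 CPM in scramble and at 129, 132 and 138 CPM in knockdown libraries. The groups overlapped through knockdown replicate 3 (log2 -0.06, SE 0.042, edgeR adjusted p = 0.343). Wdr83os (chromosome 8, 85080963 to 85082339), the small partner that binds the new membrane span, stood at 30.03, 28.7 and 29.4 CPM in scramble and at 32.7, 29.7 and 32.1 CPM in knockdown libraries. Here knockdown replicate 2 lay inside the scramble range (log2 0.10, SE 0.059, edgeR adjusted p = 0.216).

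In the channel itself the pore-forming subunit gene among the members, Sec61a1, was slightly lower, and values for the small subunits overlapped between groups. Sec61a1 (chromosome 6, 88503607 to 88518800), the pore, stood at 340, 326 and 349 CPM in scramble replicates 1, 2 and 3 and at 315, 308 and 298.5 CPM in knockdown replicates 1, 2 and 3. Every knockdown library was below every scramble library, by a log2 fold change of -0.14 (SE 0.043, edgeR adjusted p = 0.015). It missed the threshold when scramble replicate 1 (0.0551), scramble replicate 3 (0.0999) or knockdown replicate 3 (0.0962) was left out, and the alternatives spanned 0.00409 to 0.0999. Its paralog Sec61a2, not a member, had means of 40.4 ± 3.87 CPM in scramble and 40.1 ± 2.03 CPM in knockdown (SD, n = 3 each). It did not pass (log2 -0.006, SE 0.0635, edgeR adjusted p = 0.958).

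Sec61b (chromosome 4, 47474661 to 47483233), the tail-anchored beta subunit, stood at 75.6, 73.5 and 82.7 CPM in scramble and at 81.6, 74.9 and 72.9 CPM in knockdown libraries (log2 -0.02, SE 0.053, edgeR adjusted p = 0.852). Sec61g (chromosome 11, 16501638 to 16508484), the gamma subunit that clamps the pore, stood at 73.75, 72.8 and 77.4 CPM in scramble and at 70.8, 72.3 and 74.5 CPM in knockdown libraries (log2 -0.04, SE 0.046, edgeR adjusted p = 0.546). For both genes the groups overlapped.

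Ssr1 (chromosome 13, 37971401 to 37994208), the TRAP alpha subunit, fell most among the 9 members besides Nomo1. It stood at 368, 376 and 383 CPM in scramble replicates 1, 2 and 3 and at 299, 323 and 299 CPM in knockdown replicates 1, 2 and 3. The groups were apart and knockdown replicate 2 was the highest of its group (log2 -0.29, SE 0.043, edgeR adjusted p = 1.5e-05). Ssr1 overlaps the long noncoding gene Gm52041, which was not analysed here. The remaining TRAP and GEL subunits moved little: Ssr4 fell (log2 -0.12, SE 0.046, edgeR adjusted p = 0.0422), while Ssr3 (-0.12, adjusted p = 0.0558), the GEL subunit gene Rab5if (-0.12, adjusted p = 0.0534) and Ssr2 (0.07, adjusted p = 0.257) did not pass in the edgeR test. Ssr4 missed the threshold when scramble replicate 1 (0.0973), scramble replicate 3 (0.183), knockdown replicate 2 (0.133) or knockdown replicate 3 (0.137) was left out, and its alternatives spanned 0.00873 to 0.183. Of these 4 genes 1 thus passed (25%), beside 32.2% of all genes tested and 45.9% of those with a mean of at least 25 CPM. Over all alternatives 0 to 3 of the 4 passed. The count was 0 when scramble replicate 1 or 3 was left out. It was also 0 with no filter on low counts, with the non-robust fit and on unfiltered log2(FPKM + 1). Ssr4 missed the threshold in those last 3 settings too (0.0711, 0.0517 and 0.0605).

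Per length, in TPM, the channel subunits were the most abundant members in scramble cells: Sec61b at 325 ± 15.9, Sec61a1 at 259 ± 3.86 and Sec61g at 229 ± 6.08 TPM (SD, n = 3). Nomo1 came next at 193 ± 6.82 TPM, ahead of its partner Tmem147 at 106 ± 3.57 TPM. Wdr83os (97.7 ± 1.38), Ccdc47 (97.4 ± 4.77) and Ssr1 (95.4 ± 4.23 TPM) followed with overlapping ranges. Ncln (83.2 ± 4.47) and Tmco1 (41.9 ± 1.31 TPM) closed the order, and apart from those 3 genes no neighbouring ranges overlapped.

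In knockdown cells Nomo1, chosen for its fall, moved from rank 4 to rank 9, at 45.2 ± 1.26 TPM, and Ncln from rank 9 to rank 4, at 129 ± 8.65 TPM (SD, n = 3 each). Its range there overlapped that of Tmem147 (121 ± 8.11 TPM). Sec61a1 (232 ± 4.07) and Sec61g (220 ± 7.81 TPM) overlapped as well, while Sec61b stayed the highest at 317 ± 15.3 TPM and Tmco1 the lowest at 36.9 ± 0.879 TPM.

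**Figure D3:**
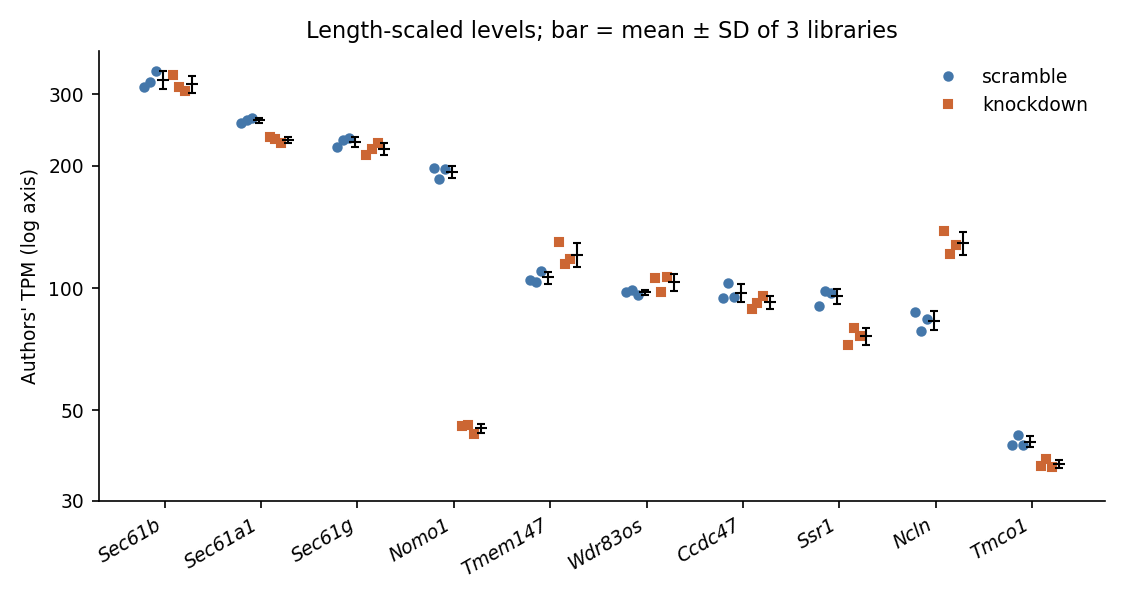
TPM of each gene in each library on a log axis, in order of the scramble mean (circles, scramble; squares, knockdown; black bars, mean ± SD of 3 libraries). Nomo1 drops from 193 to 45.2 TPM and Ncln climbs from 83.2 to 129 TPM, which exchanges their ranks.

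The wider machinery for entering the ER membrane changed in both directions. Over the 7 lists for targeting, insertion and modification, 14 of 57 tested genes rose and 12 fell, 45.6% in all, with log2 fold changes from -0.84 to 0.42. That share is near the 45.9% of all genes with a mean of at least 25 CPM, and 32.2% of all genes tested were called. Not all of the 57 reach that level, and Wrb and Mmgt2, at the ends of the range, lie below it. The 14 rising genes include the near-identical copies Srp54a, Srp54b and Srp54c, which may count a single change more than once. Over all 9 lists, which add the ER shape and Nodal lists, 20 of 88 tested genes rose and 23 fell, 48.9% in all, with log2 fold changes from -1.12 to 1.21. Their median log2 fold change was -0.01. The count of 43 was 27 without scramble replicate 1.

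In the signal recognition particle and its receptor, which bring ribosomes to the channel, 5 of 10 genes rose and 1 fell (median 0.11). Together they make 60%, beside 32.2% of all genes tested and 45.9% of those with a mean of at least 25 CPM. Srpr, the receptor's alpha subunit, stood at 189, 175 and 195 CPM in scramble and at 218, 212.5 and 209 CPM in knockdown libraries, with no overlap (log2 0.20, SE 0.045, edgeR adjusted p = 0.00169). Srp72, a protein of the particle, rose by 0.17 on the log2 scale. The other rising genes were Srp54a, Srp54b and Srp54c, near-identical copies among which the split of reads is uncertain. The 60% may therefore count a single change more than once. The count of 6 changed genes was 3 when scramble replicate 1 or 3 or knockdown replicate 2 was left out, and 2 without knockdown replicate 3.

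In the list of Sec61 accessory factors, which also holds the paralog Sec61a2, 1 of 7 genes passed (14.3%, beside 32.2% of all genes tested). Tram1, a membrane protein beside the channel, fell from 160 ± 2.29 to 138 ± 4.94 CPM (SD, n = 3 each; log2 -0.21, SE 0.043, edgeR adjusted p = 4.32e-04; list median -0.02). Signal peptidase removes signal sequences, and its list also holds H13, the gene of signal peptide peptidase, a different enzyme. Of these 6 genes 1 passed (16.7%): Spcs3 stood at 385, 383 and 391 CPM in scramble and at 451, 480 and 482 CPM in knockdown libraries. The knockdown values all lay above the scramble values (log2 0.29, SE 0.042, edgeR adjusted p = 1.44e-05; list median -0.004). That count was 2 without scramble replicate 2.

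In oligosaccharyltransferase, which adds N-glycans to proteins leaving the channel, 3 of 12 genes rose and 4 fell (median -0.06). The share called was 58.3%, beside 32.2% of all genes tested and 45.9% of those with a mean of at least 25 CPM. Rpn1, a shared subunit, fell from 358 ± 8.45 to 316 ± 3.68 CPM and Magt1, a subunit that acts as an oxidoreductase, rose from 75.9 ± 3.03 to 90.2 ± 5.23 CPM (SD, n = 3 each). The count of 7 was 4 without knockdown replicate 2 or knockdown replicate 3.

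The ER membrane protein complex (EMC), an insertase that works beside the multipass translocon, had 3 of 11 genes higher and 3 lower (median 0.03). Here 54.5% were called, beside 32.2% of all genes tested and 45.9% of those with a mean of at least 25 CPM. Emc4 stood at 40.9, 39.6 and 39.6 CPM in scramble and at 28.5, 28.1 and 26.9 CPM in knockdown libraries (log2 -0.53, SE 0.056, edgeR adjusted p = 1.21e-07). Emc6 went the other way, from 29.5, 28.3 and 27.6 CPM to 39.1, 37.2 and 36.2 CPM (log2 0.40, SE 0.058, edgeR adjusted p = 9.99e-06). Neither gene had overlapping groups. Emc3, the subunit related to bacterial insertases, fell by 0.24, and Mmgt2, a paralog of the Mmgt1 subunit, rose by 0.42 on the log2 scale.

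Of 7 genes of the GET pathway, which inserts tail-anchored proteins such as Sec61b, 2 rose and 2 fell (median -0.04). In all 57.1% were called, beside 32.2% of all genes tested and 45.9% of those with a mean of at least 25 CPM. The falling genes were the membrane receptor subunits: Wrb had 12.8 ± 0.318 CPM in scramble and 7.13 ± 0.692 CPM in knockdown, with an edgeR adjusted p of 3.35e-07 for a log2 fold change of -0.84 (SE 0.095). Caml went from 24.7 ± 0.541 to 20.6 ± 0.161 CPM (SD, n = 3; log2 -0.26). Bag6, a cytosolic chaperone of that pathway, rose by 0.18 on the log2 scale.

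**Figure D4:**
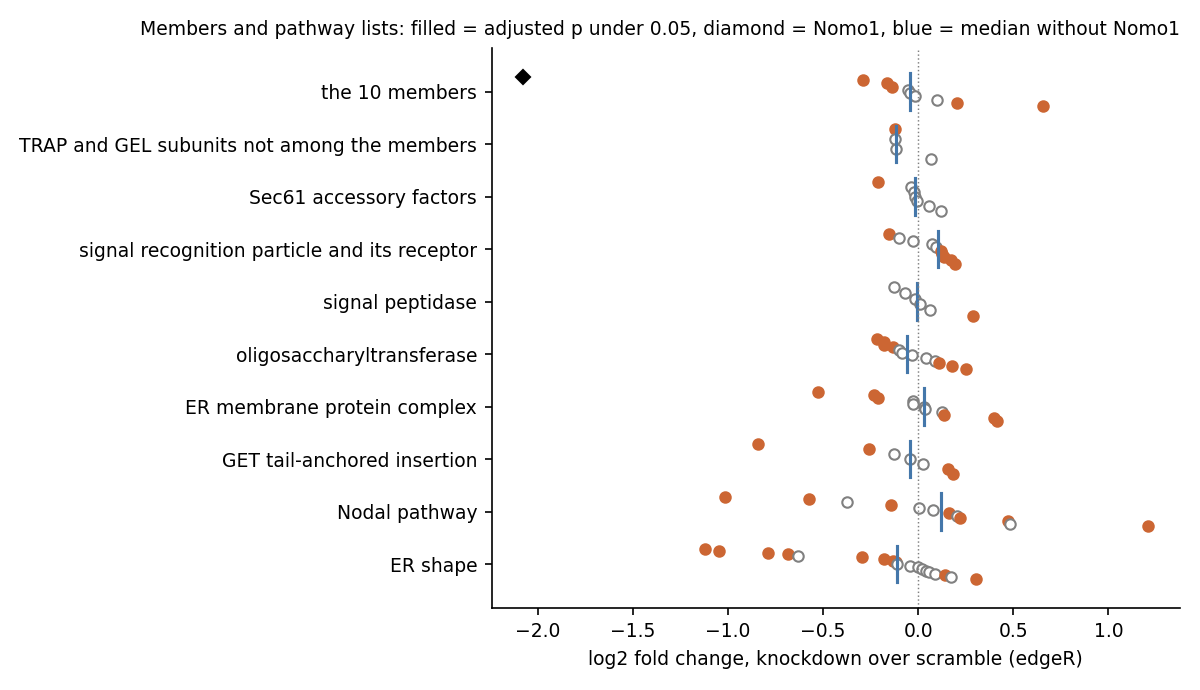
Log2 fold change (knockdown over scramble) of the 10 members and of the genes of 9 pathway lists, with a point for each gene. Filled points have an edgeR adjusted p under 0.05, the diamond is Nomo1, which has no test, and blue lines are list medians without Nomo1, which lie between -0.12 and 0.12.

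Nodal pathway genes were followed because of the zebrafish role of Nomo and nicalin. Of 19 listed genes 12 were tested, of which 4 rose and 3 fell (median 0.12). Those called make 58.3%, beside 32.2% of all genes tested and 45.9% of those with a mean of at least 25 CPM. The ligand gene Nodal was not among the 12 tested. Acvr1b, the type I receptor for Nodal and activin, stood at 72.3, 68.8 and 78.0 CPM in scramble replicates 1, 2 and 3 and at 37.0, 36.7 and 34.5 CPM in knockdown replicates 1, 2 and 3. The knockdown libraries held about the same low level each (log2 -1.02, SE 0.055, edgeR adjusted p = 3.07e-12). The proprotein convertase genes Pcsk6 and Furin, whose products cleave Nodal precursors, rose by 0.47 and 0.22 on the log2 scale. The count of 7 was 4 without scramble replicate 1 or knockdown replicate 2, and 3 without scramble replicate 3.

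Genes that shape ER sheets and tubules had 8 falling and 2 rising members of 19 (median -0.11). This makes 52.6%, beside 32.2% of all genes tested and 45.9% of those with a mean of at least 25 CPM. Rtn2, a reticulon that curves tubules, was low throughout, with scramble and knockdown means of 4.78 ± 0.729 and 2.20 ± 0.310 CPM (SD, n = 3 each; log2 -1.12, SE 0.16, edgeR adjusted p = 1.03e-05). Also falling from low scramble means were Rtn1 (1.89 CPM), Reep2 (1.66 CPM) and Reep6 (1.06 CPM), and the groups of Rtn1 overlapped. The tubule-fusing atlastins split: Atl3 fell from 131 ± 4.59 to 107 ± 8.07 CPM and Atl2 rose from 48.9 ± 1.67 to 60.4 ± 4.64 CPM. The sheet spacer gene Ckap4 stood at a log2 fold change of 0.04 (SE 0.043, edgeR adjusted p = 0.534). The count of 10 was 5 without scramble replicate 1 and 6 without knockdown replicate 3.

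Over the 6 libraries, the genes whose log2 CPM followed that of Nomo1 most closely were Kif1a (Pearson r = 0.9997), Zmiz1 (0.9996), Serf1 (0.9991), Senp3 (0.9991) and Cspg4 (0.999), among 10390 named genes with a mean of at least 5 CPM. The libraries fall into 2 groups, so r is high for any gene that is lower in knockdown with little spread, and 179 genes reached 0.99. These 5 share the order of the groups and not the size of the fall. Kif1a, a kinesin motor gene, went from 455 ± 12.8 to 288 ± 3.97 CPM and Cspg4, a proteoglycan gene on the pericyte marker list, from 43.3 ± 1.68 to 23.5 ± 0.735 CPM (SD, n = 3 each). Zmiz1, a transcriptional coregulator gene, had a log2 fold change of -0.81, Serf1 of -0.57 and the SUMO protease gene Senp3 of -0.34, against -2.08 for Nomo1.

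The genes on either side of Nomo1 on chromosome 7 had smaller changes than Nomo1. Nomo1 was chosen for its fall, so this difference is a description and no separate result. Of the 5 nearest tested genes on each side, 2 were lower, 1 was higher and the remaining 7 did not pass, beside 32.2% of all genes called, with log2 fold changes from -0.81 to 0.23. Grin2d, a glutamate receptor subunit gene at a distance of -201.8 kb between starts, fell by 0.81 (SE 0.16, edgeR adjusted p = 3.24e-04) from a low level, and Gtf2h1, a transcription factor subunit gene, fell by 0.42. The acute-phase gene Saa3 rose by 0.23. Ccdc114 and Emp3, the nearest before Nomo1, stood at -0.30 (SE 0.17, edgeR adjusted p = 0.186) and -0.12 (SE 0.078, adjusted p = 0.281), and Sergef, the nearest after it, at -0.16 (SE 0.12, adjusted p = 0.332).

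**Figure D5:**
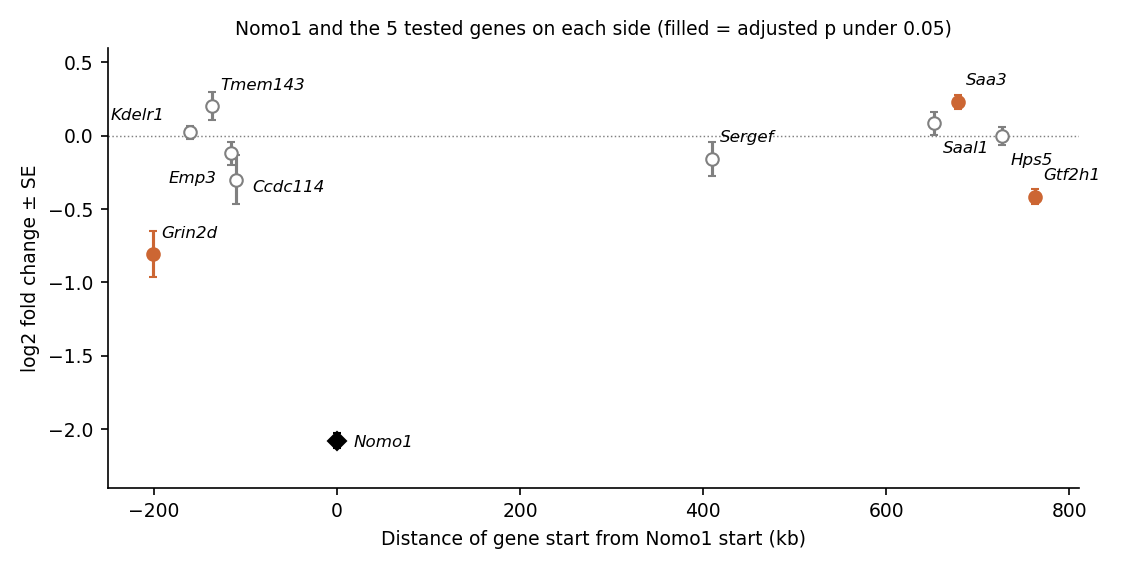
Log2 fold change (knockdown over scramble, bars ± SE) of Nomo1 (diamond) and the 5 tested genes on each side, against the distance of their starts from that of Nomo1 in kb. Nomo1, chosen for its fall, lies at -2.08, and its neighbours lie between -0.81 and 0.23.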

How the data were processed

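Poly(A)-selected, strand-specific RNA was sequenced as read pairs of 100 bases, which the labels' protocols state. Per the submitters' processing notes, HISAT2 and StringTie were used with build mm10; no version is named. The 6 deposited files are the same table, so it was read once. It holds the authors' raw read counts by gene, per the file headers. The authors also deposited FPKM and TPM values for each sample, and a signed fold score with adjusted p-values for their own comparison (tool not given in the sources used here). Another 6 columns, of normalized log2 values, were left unused.

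Counts were tested by the quasi-likelihood method of edgeR 4.0.16 (R 4.3.3), robust, after filterByExpr and TMM scaling, with group as the only term over 6 libraries, two-sided, Benjamini-Hochberg adjustment over 15954 genes, threshold 0.05. SE was taken as the size of the log2 fold change over the square root of F. CPM uses TMM-scaled library sizes. Levels of the members are compared with each other in TPM only, and the marker named for a cell type is the one highest in CPM. Depth was 30930998 to 41839742 reads in genes. Intervals from the counts alone would cover counting error only, so the spread between libraries is given.

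The members and lists were chosen with earlier results of these data known, so neither is independent of them. Named genes were the members, Sipa1, up to 2 rising and 2 falling genes per list with the smallest adjusted p, the 5 genes most correlated with Nomo1, neighbours of Nomo1 that passed, overlapping genes and for other cell types the marker highest in CPM. Not all of them are described. Also named, after their values were seen, were the Srp54 copies, Ckap4, the subunits of TRAP and GEL that did not pass, and the nearest neighbours. The same holds for Sec61a2, H13, Rtn1, Reep2, Reep6 and the markers Csf1r, Rgs5, Tcf21, Pdgfra and Dcn. Symbols are those of the table, where Hm13 is H13, Get1 Wrb, Camlg Caml, Get3 Asna1 and Srpra Srpr. Coordinates and promoters are from RefSeq (GRCm38.p6) and exons and transcripts from GENCODE M21 (GRCm38). Alternatives were RLE factors, library size only, no filter, 1 CPM or more in 3 libraries, DESeq2 1.42.0, voom in limma 3.58.1, no robust option, a block for the replicate number, and leaving out single libraries. On the FPKM side limma was run with pseudocounts of 1 and 0.1 on the log2 scale, for genes reaching a mean FPKM of 0.5 in either group, and with pseudocount 1 for every gene.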

Additional observations from a re-analysis of the deposited data

How the results depend on the processing

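The count of genes called was 4017 to 5307 across the 17 alternatives, against 5139, and no direction reversed in any member called. The 9 members other than Nomo1 gave 5 calls, and 3 to 5 when a library was left out. The 9 pathway lists gave 43 calls, and 27 to 40 when a library was left out. The log2 fold change of Nomo1 stayed between -2.13 and -2.01, and Ncln and Ssr1 passed in all 17 alternatives. The median log2 fold change of all genes lay between -0.007 and 0.007 in every alternative. In limma on log2 FPKM with pseudocount 1, 3 signal recognition genes passed in place of 6 and 6 ER shape genes in place of 10. Samples with the same number did not deviate together (correlations of 0.0472, -0.00256 and -0.0304 for numbers 1, 2 and 3), so the numbers were not taken as pairs. With the replicate block 5307 genes, 5 members and 46 genes of the lists passed. Among the members called, Tmem147, Tmco1 and Sec61a1, with changes of 0.20, -0.16 and -0.14 on the log2 scale, lost their call in 2, 1 and 3 alternatives.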
